A study of Mus musculus with 12 samples.

Results

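The interferon response genes described here are 36 mouse genes chosen by name: interferon-stimulated genes and 3 of the factors that drive them. They were chosen with earlier results of these data known, so the shares over all genes given below are not an independent background. All 36 symbols were matched to 1 Ensembl identifier each among the 52636 identifiers in the count files, and all 36 were among the 14433 genes with enough counts to be tested. The livers of C57BL/6 mice, 12 weeks old, gave 12 RNA sequencing libraries. The groups were p53 wt on normal diet (wt_normal), p53 ko on normal diet (ko_normal), p53 wt on HFD, a high-fat diet (wt_HFD), and p53 ko on HFD (ko_HFD), with 3 libraries each. The series is titled for the control of squalene epoxidase and cholesterol synthesis by p53 and does not name interferon. The labels name no knockout allele, sex or diet length. They also do not state that replicates are different animals, so each p-value reflects only how these libraries vary, and that variation may be technical. Whole liver was sequenced, and in bulk RNA a change in the number of cells of a type and a change in RNA per cell cannot be told apart.

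Cells make type I interferon when sensors such as RIG-I or MDA5 meet viral RNA, or cGAS meets DNA in the cytosol. Interferon then binds the receptor IFNAR1 and IFNAR2, the kinases JAK1 and TYK2 phosphorylate STAT proteins, STAT2 among them, and these join IRF9 to form ISGF3, which binds interferon-stimulated response elements in the promoters of antiviral genes. Several products, among them IRF7, STAT2, IRF9 and the sensors themselves, are part of the pathway, which lets the response amplify itself, whereas USP18 and others damp it. In liver, hepatocytes, Kupffer cells and endothelial cells all express the receptor and can mount the response.

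The promoters of many members share a sequence, the core of the response element. The members were chosen as interferon-stimulated genes, so its share among them is no independent result. The RefSeq promoter table on build GRCm38.p6 held 25 of the 36 members, each with a window of 300 bases, from 250 before the start of transcription to 50 after it. The core of the response element was searched as GAAA, any 2 bases, GAAA, on either strand, with overlapping matches kept, so that on the given strand it can also read TTTC, any 2 bases, TTTC. It was present in 14 of the 25 promoters (56%), against 3.99% of all 27025 genes in the table and 3.69% of the 10492 tested genes that are no members. The stretches below belong to 6 members with at least 2 matches, and capitals mark the matches, with 15 bases on either side. They are Isg15 at chr4:156200860-156200911 on the minus strand, Ifit1 at chr19:34640770-34640828, Ifit3 at chr19:34583358-34583431 and Ifit3b at chr19:34607754-34607827 on the plus strand, and Oas1a at chr5:120907515-120907560 and Oas1g at chr5:120887601-120887646 on the minus strand.

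Isg15: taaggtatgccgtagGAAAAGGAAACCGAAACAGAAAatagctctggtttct
Ifit1: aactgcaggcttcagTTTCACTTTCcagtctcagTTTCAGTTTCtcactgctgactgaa
Ifit3: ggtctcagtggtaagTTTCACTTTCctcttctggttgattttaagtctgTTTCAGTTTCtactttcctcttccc
Ifit3b: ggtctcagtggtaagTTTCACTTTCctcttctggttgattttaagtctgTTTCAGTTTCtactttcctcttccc
Oas1a: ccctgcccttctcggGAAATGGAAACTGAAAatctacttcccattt
Oas1g: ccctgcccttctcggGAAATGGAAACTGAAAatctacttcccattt

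Isg15 held 3 overlapping matches, the first 78 bases before its start. The Ifit3 and Ifit3b stretches were identical over 74 bases, and the Oas1a and Oas1g stretches over 46 bases. The genes of both pairs were counted separately among the 14. Much of the transcripts of these neighbours is shared too, as described with each family, so reads of the pairs could have been counted for either gene. The other members with a match in the window were Bst2 and Ddx60, with 2 matches each that are not shown, and Ddx58, Ifih1, Oas3, Rsad2, Stat2 and Trim30a. No match in the window was found for 11 members, among them Irf7, Ifi44, Xaf1 and Ifi35, which says only that these letters are not there. A match is a description of the sequence and not evidence of binding.

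Total counts per library ran from 15465187 to 20492567. Trp53, the targeted gene, had 142 to 432 counts in the 6 wt libraries and 5 to 28 in the 6 ko libraries. A pair of libraries stood apart from the rest. In wt_normal replicate 2 the skeletal muscle markers summed to 9231 CPM (read counts scaled to a common library size), against at most 14.4 CPM in any other library. In ko_normal replicate 1 the mitochondrial chromosome took 14.6% of the counts, against 10.3% in ko_HFD replicate 2 and 4.18% to 7.22% elsewhere. Hepatocyte markers were all detected in every library.

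The members were low to moderate in level, and together took 0.0790% to 0.163% of the counts of a library. Per kilobase of exon, the highest mean levels over the 12 libraries were those of Bst2, which encodes tetherin, at 288 CPM per kb, and of Ifi27 at 121 CPM per kb. Isg15, Ifi27l2a, Ifi35, Irf7 and Stat2 followed with 32.1, 30.3, 28.6, 27.3 and 22 CPM per kb. The lowest were Oas3 at 0.298 and Ddx60 at 0.353 CPM per kb. The response genes were therefore measured over a wide range of depth, from 7 counts for Ifi44 in its lowest library to 6968 for Bst2 in its highest.

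The libraries of the same group did not move as 1 block. When each gene was set against its own mean over the 12 libraries, the median log2 deviation of the 36 members was -0.72, -0.75 and -0.49 in wt_normal replicates 1, 2 and 3. It was -0.44, 0.54 and 0.65 in ko_normal, -0.18, -0.13 and 0.20 in wt_HFD, and 0.12, 0.58 and 0.77 in ko_HFD. The wt_normal libraries were the 3 lowest of the 12, and 4 of the 6 ko libraries were the 4 highest. Replicate 1 of ko_normal lay just above the wt_normal libraries, and it was the lowest of its group for 34 of the 36 members, against 41.1% of all genes tested. Replicate 1 of ko_HFD was the lowest of its group for 24 of 36, against 33.4% of all genes. Replicate 3 of ko_HFD was the highest of its group for 25 members, against 34.9% of all genes. The highest of wt_HFD for 24 members was replicate 3, against 35.1% of all genes.

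**Figure D1:**
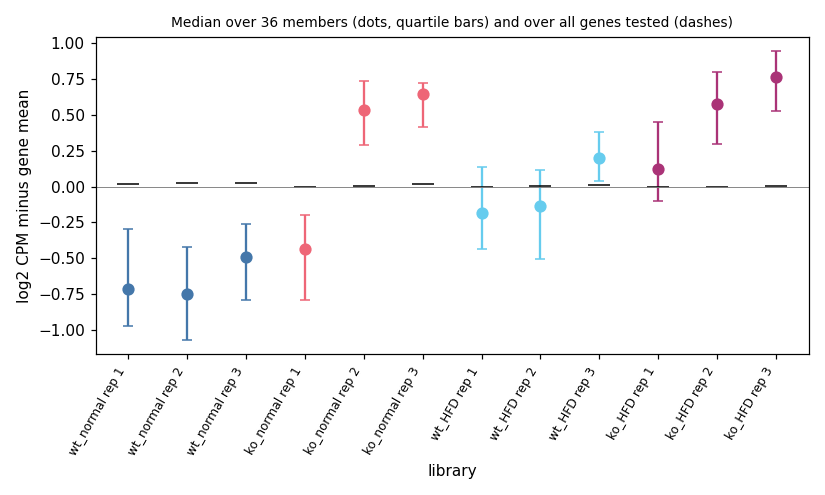
Median deviation of the 36 interferon response genes from their own mean over the 12 libraries (dots, vertical axis in log2 CPM) with bars from the first to the third quartile, for each library; dashes mark the median over all genes tested. The medians run from -0.75 in wt_normal replicate 2 to 0.77 in ko_HFD replicate 3, and ko_normal replicate 1 lies at -0.44, below the other ko libraries.

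**Figure D2:**
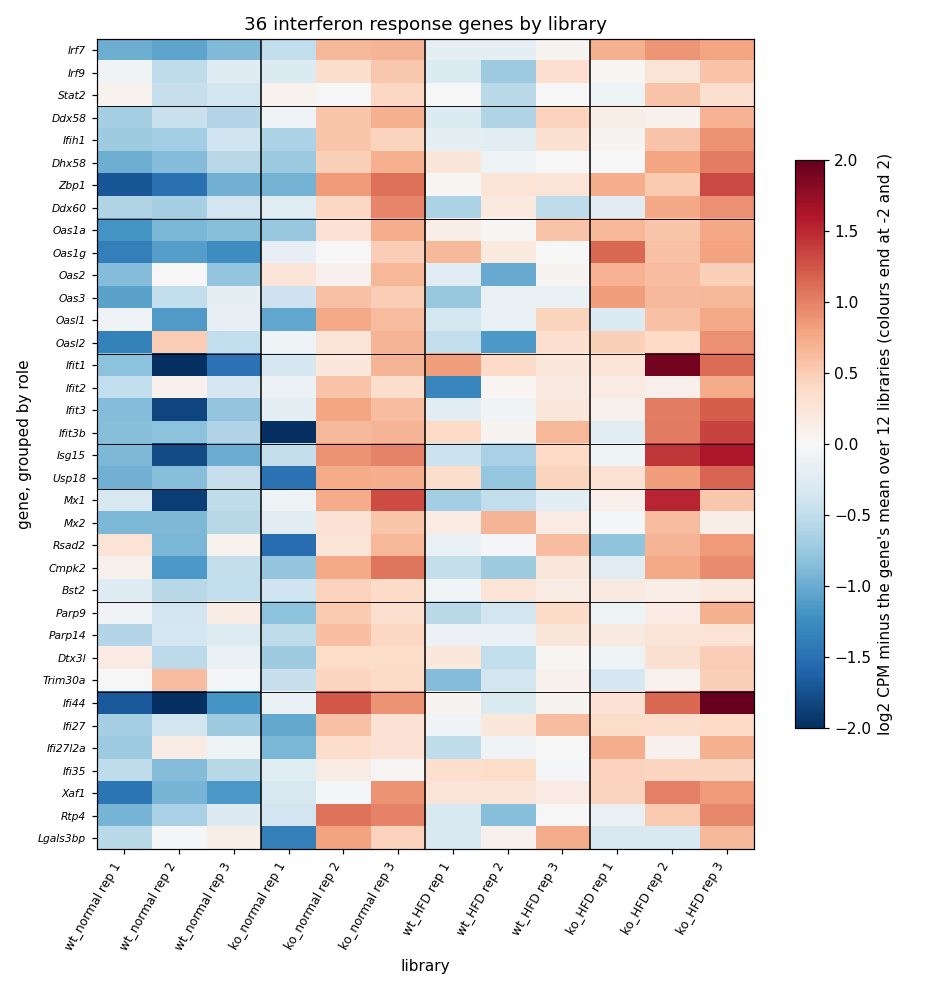
Deviation of each of the 36 genes (rows, grouped by role) from its own mean over the 12 libraries (columns), in log2 CPM, with colours that end at -2 and 2. The wt_normal columns and that of ko_normal replicate 1 are mostly blue, below the mean, and those of ko_normal replicates 2 and 3 and ko_HFD replicates 2 and 3 are mostly red, above it.

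The first comparison asked how ko and wt livers differed, averaged over both diets. All 36 members had a positive log2 difference, and 6 rose at an adjusted p under 0.05 in edgeR's quasi-likelihood test: Irf7, Ifi44, Ifit3, Xaf1, Oas1g and Isg15. Over all 14433 genes tested 1.16% were called, and 0.79% were called higher. The median log2 difference of the 36 members was 0.71, a 1.64-fold level, and that of all genes was -0.01. In 2 members, Oas2 and Mx1, all 6 ko libraries lay above all 6 wt libraries, as they did for 0.901% of all genes. The count of 6 depended on the test and on single libraries. The Wald test of DESeq2 called 18 members, with 6% of all genes called, and edgeR with no filter on low counts called 13, with 2.45% of all genes called. In filtered edgeR fits the count was 1, Irf7, when wt_normal replicate 1 or 3, ko_normal replicate 3, wt_HFD replicate 2 or 3, or ko_HFD replicate 2 or 3 was left out. In these fits 0.302% to 0.785% of all genes were called. It was 2 without wt_normal replicate 2 (0.427% of all genes called), 3 without ko_normal replicate 2 (1.02%), and 9 when ko_normal replicate 1 was dropped (0.538%). Dropping replicate 1 of wt_HFD gave 4 (1.7% of all genes called), and dropping that of ko_HFD gave 5 (1.0%). Irf7 kept its call in all 12 fits that left out 1 library, with a log2 difference from 1.03 to 1.27.

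On normal diet, the direction was the same and no member passed the threshold. Of the 36 members, 35 had a positive log2 difference between ko_normal and wt_normal, Trim30a being the exception at -0.06, and the median was 0.88, a 1.84-fold level, against -0.02 for all genes. None of the members was called by edgeR at an adjusted p under 0.05, with 0.208% of all genes called, and the smallest adjusted p was 0.0539, for Irf7. At an unadjusted p under 0.05, 22 members were higher and none lower, against 15.1% of all genes in both directions. DESeq2 called 14 members, with 3.69% of all genes called, and edgeR with no filter 13, with 2.46% of all genes called. All 3 ko libraries lay above all 3 wt libraries for 15 members, and for 11.4% of all genes. Leaving out ko_normal replicate 1, the ko library with the low interferon genes and the high mitochondrial share, the median was 1.14. In that fit 2 members were called, Irf7 (log2 difference 1.65, edgeR adjusted p = 0.00192) and Zbp1, with 0.108% of all genes called. This library was the lowest of its group for 34 of the 36 members. Leaving it out therefore raises the ko_normal levels by construction, here and in the average over both diets. Leaving out wt_HFD replicate 2, a library of neither group, 1 member was called (Irf7, adjusted p = 0.0459), with 0.518% of all genes called.

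On HFD, 34 of the 36 members had a positive log2 difference between ko_HFD and wt_HFD, with a median of 0.56, a 1.47-fold level, against -0.01 for all genes. The exceptions were Lgals3bp at -0.16 and Mx2 at -0.09. EdgeR called none of the members, with 0.0693% of all genes called, and the smallest adjusted p was 0.366, again for Irf7. DESeq2 also called 0, with 0.663% of all genes called. At an unadjusted p under 0.05, 9 members were higher and none lower, against 8.85% of all genes in both directions. The groups did not overlap, with ko above wt, for 10 members and for 6.7% of all genes. Without ko_normal replicate 1, 1 member was called on HFD (Irf7, log2 difference 0.89, adjusted p = 0.0355), with 0.0941% of all genes called.

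The ko effects on the 2 diets come from different libraries, and their difference was tested directly. It was negative, a smaller ko effect on HFD, for 26 of the 36 members, with a median of -0.41 against 0.01 for all genes. EdgeR called none of the members and 0% of all genes, and DESeq2 called 0 members and 0.138% of all genes. At an unadjusted p under 0.05, Mx2 and Xaf1 were lower, 2 of 36, against 5.02% of all genes in both directions. The ko effects on the members are thus not shown to differ between the diets.

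The diet itself was compared within each genotype. In wt livers 2 members rose on HFD, Oas1g and Ifi35, with 0.693% of all genes called and 0.43% called higher. The log2 difference was positive for 32 members, with a median of 0.46 against -0.03 for all genes, and all 3 wt_HFD libraries lay above all 3 wt_normal libraries for 17 members, against 11.2% of all genes. The count of 2 was 0 when wt_normal replicate 1, 2 or 3 or wt_HFD replicate 1 or 2 was left out (0.0604% to 0.859% of all genes called). It was 1 without ko_normal replicate 2 or 3 or ko_HFD replicate 2 (0.161% to 0.388% of all genes called). It was 7 without ko_normal replicate 1, where 0.794% of all genes were called. DESeq2 called 9 members, with 4.7% of all genes called, and edgeR with no filter 9, with 2.65% of all genes called. In ko livers the difference was positive for 30 members, with a median of 0.28 against 0.00 for all genes, but the median was -0.01 without ko_normal replicate 1. EdgeR called 0 members and 0% of all genes in ko, and DESeq2 called 0 members and 0.269% of all genes. At an unadjusted p under 0.05, 2 members were higher on HFD in ko, Ifi35 and Oas1g, against 5.63% of all genes in both directions, and 4 members did not overlap, against 5.45% of all genes. Averaged over both genotypes, 3 members rose on HFD, Oas1g, Ifi35 and Xaf1, with 1.04% of all genes called and 0.582% called higher. DESeq2 called 9 members in that comparison, with 5.63% of all genes called, and edgeR with no filter 7, with 1.86% of all genes called. The count of 3 was 0 without wt_normal replicate 3 or ko_HFD replicate 1 (0.322% and 0.301% of all genes called). It was 1 without wt_normal replicate 2, ko_normal replicate 1 or 2, or wt_HFD replicate 1 (0.375% to 0.543%). With both libraries that stand apart left out, no member was called in wt (0.151% of all genes called) or averaged over both genotypes (0.287%).

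**Figure D3:**
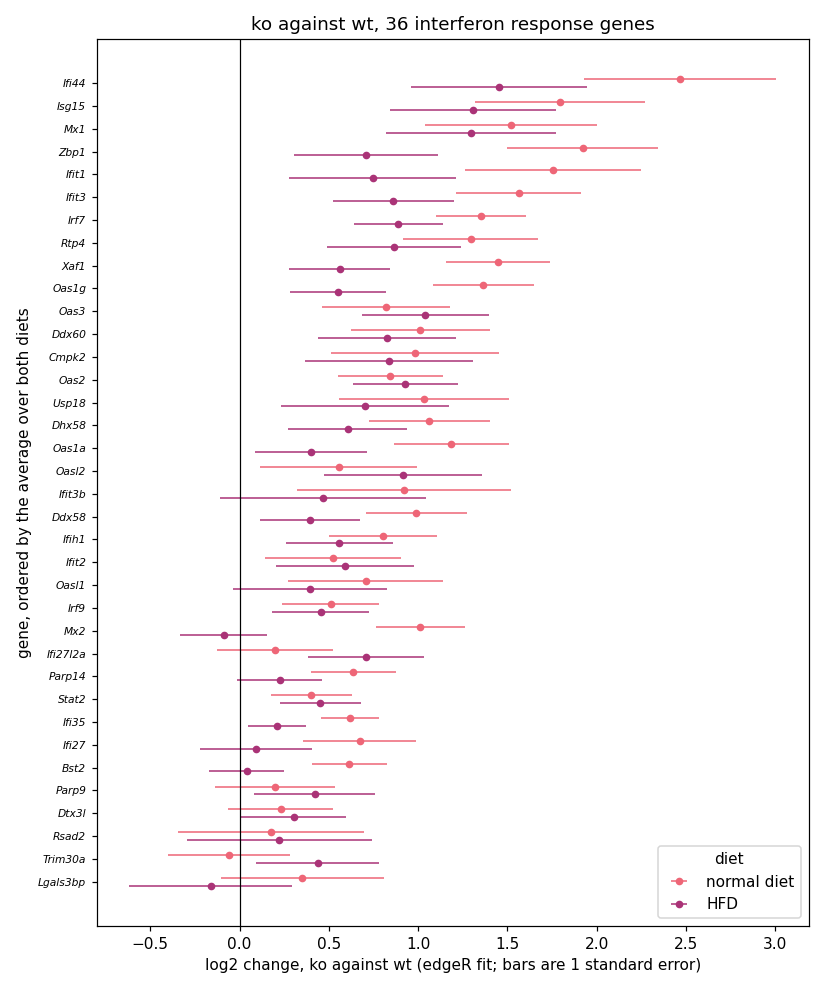
Log2 change, ko against wt, of each of the 36 genes on normal diet and on HFD (dots, with bars of 1 standard error derived from the F statistic of the edgeR fit), ordered by the average over both diets. On normal diet 35 of the 36 dots lie to the right of 0, and on HFD 34 do.

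Among the transcription factors, Irf7 had the smallest adjusted p of the 36 members in each ko against wt comparison. Irf7 (chr7:141262706-141266481, GENCODE M21 on GRCm38) encodes the master regulator of interferon alpha production, and its level was 46.6, 44.2 and 49.8 CPM in wt_normal, 65.4, 145 and 148 in ko_normal, 81.4, 81.6 and 95.5 in wt_HFD and 150.0, 169 and 159 in ko_HFD. The wt_normal libraries were the lowest 3 and the ko_HFD libraries the highest 3 of the 12, and ko_normal replicate 1 at 65.4 CPM lay between wt_normal and the rest of its group. Irf7 was 2.17-fold higher in ko averaged over both diets (log2 1.12 ± 0.18 SE, adjusted p = 0.0124), with log2 differences of 1.35 ± 0.25 SE on normal diet and 0.89 ± 0.25 SE on HFD (adjusted p = 0.0539 and 0.366). In neither diet did the ko libraries overlap with the wt libraries. Stat2, a subunit of ISGF3, had 134, 92.5 and 99.1 CPM in wt_normal, 133, 127 and 169.8 in ko_normal, 128, 87.8 and 126 in wt_HFD and 119, 189 and 159 in ko_HFD. Its groups overlapped on both diets, and the averaged log2 difference of 0.43 ± 0.16 SE was not called (adjusted p = 0.178). Irf9, the DNA-binding subunit of ISGF3, had a similar averaged difference of 0.48 ± 0.19 SE (adjusted p = 0.2), also without a call.

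The nucleic acid sensors were 5 genes, with a median log2 difference of 1.01 on normal diet and 0.61 on HFD, and edgeR called none in any comparison. DESeq2 called all 5 for the averaged ko effect, Ddx58 and Zbp1 for ko on normal diet, and Zbp1 for HFD in wt and averaged over both genotypes. All 5 passed an unadjusted p under 0.05 in edgeR and were higher in ko on normal diet, and 0 passed on HFD. Of all genes, 15.1% and 8.85% passed, in both directions. Ddx58, which encodes RIG-I, the sensor of viral RNA ends, had 10.2, 11.9 and 10.8 CPM in wt_normal, 15.3, 23.6 and 26.3 in ko_normal, 13.3, 10.6 and 22.2 in wt_HFD and 17.8, 17.1 and 26 in ko_HFD. All 3 ko_normal libraries lay above wt_normal, whereas on HFD wt replicate 3 at 22.2 CPM lay within the range of ko. Dhx58, which encodes the regulator LGP2, had 6.59, 7.14 and 8.84 CPM in wt_normal, 7.76, 18 and 21.4 in ko_normal, 15.4, 12.1 and 13.1 in wt_HFD and 13, 22.5 and 26.5 in ko_HFD. Its ko_normal replicate 1 lay within the wt_normal range and the other ko_normal libraries above it. The averaged log2 differences were 0.69 ± 0.20 SE for Ddx58 and 0.83 ± 0.24 SE for Dhx58 (adjusted p = 0.104 and 0.103). Without ko_normal replicate 1, the lowest ko_normal library for Dhx58, Dhx58 passed the threshold (log2 1.0, adjusted p = 0.0373). Zbp1, a sensor of Z-form nucleic acids that can trigger necroptosis, had 2.83, 3.29 and 4.75 CPM in wt_normal, 4.81, 16.7 and 19.8 in ko_normal, 9.38, 11.2 and 11 in wt_HFD and 15.3, 13.3 and 23 in ko_HFD. Its groups did not overlap on either diet, and it just missed the threshold (averaged log2 1.32 ± 0.29 SE, adjusted p = 0.0515). Ifih1, which encodes MDA5, and Ddx60, a helicase linked to RIG-I signalling, had averaged differences of 0.68 ± 0.21 SE and 0.92 ± 0.27 SE without a call.

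The OAS family makes oligoadenylates that switch on RNase L, and the median log2 difference of its 6 members was 0.83 on normal diet and 0.73 on HFD, with 1 gene called by edgeR. DESeq2 called Oas1a, Oas1g, Oas2 and Oas3 for the averaged ko effect, and Oas1a and Oas1g for ko on normal diet, for HFD in wt and for HFD averaged over both genotypes. Oas1g (chr5:120876142-120887613) had 1.35, 1.62 and 1.48 CPM in wt_normal, 3.13, 3.49 and 4.91 in ko_normal, 5.47, 4.0 and 3.51 in wt_HFD and 7.71, 5.24 and 6.08 in ko_HFD. The wt_normal libraries were the lowest 3 of the 12, and on normal diet the genotypes did not overlap. In edgeR Oas1g was the only member of the family called: averaged over both diets it was 1.94-fold higher in ko (log2 0.96 ± 0.20 SE, adjusted p = 0.0388), and it was 2.9-fold higher on HFD in wt (log2 1.54 ± 0.28 SE, adjusted p = 0.0329). Oas1g is uncertain as a single gene, since 45.7% of its 50-base stretches also occur in Oas1a or Oas1b, and 57.6% of those of Oas1a occur in Oas1g or Oas1b. The log2 difference of Oas1a, ko against wt, was 1.19 ± 0.32 SE on normal diet and 0.40 ± 0.31 SE on HFD, values within 1 SE of the 1.37 ± 0.28 and 0.55 ± 0.27 SE of Oas1g. Oas2 had 5.85, 10.7 and 6.13 CPM in wt_normal, 12.7, 11.2 and 16.8 in ko_normal, 9.08, 5.29 and 11.1 in wt_HFD and 17.2, 16.3 and 14.9 in ko_HFD, with every ko library above every wt library. Its averaged log2 difference was 0.89 ± 0.21 SE, just above the threshold (adjusted p = 0.0616). Oasl1, which encodes an OAS-like protein that lacks the enzyme activity and restrains IRF7 translation, had 12.9, 6.19 and 12.1 CPM in wt_normal, 6.61, 22.9 and 21.1 in ko_normal, 10.6, 12.3 and 18.5 in wt_HFD and 11.2, 20.4 and 22.9 in ko_HFD, with overlapping groups on both diets (averaged log2 0.55 ± 0.31 SE, adjusted p = 0.355). Oas3 and Oasl2 had averaged differences of 0.93 ± 0.25 and 0.73 ± 0.31 SE without a call.

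The IFIT proteins bind foreign RNA, and the 4 genes lie in 1 cluster on chromosome 19. Ifit3 (chr19:34583531-34588731) had 7.32, 3.71 and 7.66 CPM in wt_normal, 11.8, 22.9 and 20.4 in ko_normal, 11.4, 12.6 and 15.6 in wt_HFD and 14.2, 27 and 30.9 in ko_HFD. It was lowest in wt_normal, and ko_normal lay above it in all 3 libraries, whereas on HFD ko replicate 1 at 14.2 CPM lay within the wt range. Ifit3 rose 2.32-fold in ko averaged over both diets (log2 1.21 ± 0.24 SE, adjusted p = 0.0385). Ifit1 had 8.25, 1.86 and 5.21 CPM in wt_normal, 11.5, 16.7 and 23.2 in ko_normal, 25.9, 18.9 and 16.9 in wt_HFD and 17.5, 54.7 and 31.4 in ko_HFD. Its lowest library was wt_normal replicate 2, with 39 counts, and its highest ko_HFD replicate 2, with 950, and on HFD the genotypes overlapped. Its averaged log2 difference was 1.25 ± 0.34 SE (adjusted p = 0.0901), and on HFD in wt it was 2.02 ± 0.50 SE (adjusted p = 0.0864), both without a call. Of the 50-base stretches of Ifit3, 51.2% also occur in Ifit3b, so reads cannot be assigned to one of them with certainty, and Ifit3b, far lower, had an averaged difference of 0.69 ± 0.42 SE without a call. Ifit2 had an averaged difference of 0.56 ± 0.27 SE, and its groups overlapped on both diets.

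Isg15 and Usp18 encode the ubiquitin-like modifier ISG15 and the protease that removes it and also restrains the receptor. Isg15 (chr4:156199424-156200818) had 10.2, 5.48 and 9.55 CPM in wt_normal, 13.6, 35.5 and 38 in ko_normal, 14.2, 12.1 and 25.1 in wt_HFD and 17.9, 51.3 and 58 in ko_HFD. Replicates 2 and 3 of both ko groups held the 4 highest values of the 12, whereas replicate 1 of ko_normal, at 13.6 CPM, was little above the highest wt_normal library and that of ko_HFD lay within the wt_HFD range. Isg15 rose 2.93-fold in ko averaged over both diets (log2 1.55 ± 0.33 SE, adjusted p = 0.0456), with 1.79 ± 0.48 SE on normal diet and 1.31 ± 0.47 SE on HFD (adjusted p = 0.117 and 0.463). Usp18 had 7.26, 7.9 and 10.3 CPM in wt_normal, 5.1, 23.7 and 23.4 in ko_normal, 18, 8.26 and 19.3 in wt_HFD and 17.3, 25.3 and 31.7 in ko_HFD. Its ko_normal replicate 1 was the lowest of the 12, the genotypes overlapped on both diets, and its averaged difference of 0.87 ± 0.33 SE was not called (adjusted p = 0.187).

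The Mx GTPases, viperin, CMPK2 and tetherin block steps of viral replication and release, and edgeR called none of these 5 genes in any comparison. DESeq2 called Mx1 for the averaged ko effect, Mx1 and Mx2 for ko on normal diet, and Mx2 for HFD in wt and averaged over both genotypes. At an unadjusted p under 0.05 in edgeR, 3 passed for ko on normal diet and 1 on HFD, against 15.1% and 8.85% of all genes. Bst2, the highest member per kilobase, had 214, 173 and 181 CPM in wt_normal, 193, 348 and 329.9 in ko_normal, 244, 306 and 281 in wt_HFD and 287, 277 and 291 in ko_HFD. On normal diet ko replicates 2 and 3 exceeded all wt libraries and replicate 1 did not, and on HFD the groups overlapped. The log2 difference was 0.62 ± 0.21 SE on normal diet and 0.04 ± 0.21 SE on HFD. Mx2 had 7.14, 7.09 and 9.04 CPM in wt_normal, 11.5, 16.1 and 19.4 in ko_normal, 14.8, 21.3 and 14.8 in wt_HFD and 12.8, 20.4 and 14.6 in ko_HFD. It was higher in every ko_normal library than in wt_normal (log2 1.01 ± 0.25 SE, adjusted p = 0.0993), and on HFD the ranges overlapped (-0.09 ± 0.24 SE). The difference between those effects was -1.10 ± 0.35 SE, the smallest p among the members in that test, without a call (adjusted p = 0.913). Mx1 was at 2.4, 0.809 and 2.09 CPM in wt_normal, 2.78, 4.99 and 7.36 in ko_normal, 1.86, 2.13 and 2.55 in wt_HFD and 3.21, 8.58 and 4.33 in ko_HFD, with all ko libraries above all wt libraries and an averaged difference of 1.41 ± 0.34 SE (adjusted p = 0.0645). Rsad2 (viperin) and Cmpk2, which lie side by side on chromosome 12, had averaged differences of 0.20 ± 0.37 and 0.91 ± 0.33 SE without a call.

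The PARP, DTX3L and TRIM proteins, which modify proteins or tune the response, had the smallest median log2 difference of the 8 role groups on normal diet, 0.21, with 0.36 on HFD, and neither edgeR nor DESeq2 called any for ko against wt. In edgeR 1 of the 4 passed an unadjusted p under 0.05 on normal diet and 0 on HFD, against 15.1% and 8.85% of all genes. Parp9 and Dtx3l form a complex and are adjacent antisense genes on chromosome 16, and reads of the overlap cannot be assigned without strand. Parp9 had 28.1, 22.8 and 32.7 CPM in wt_normal, 16.7, 42.5 and 36.8 in ko_normal, 20.3, 23 and 38.3 in wt_HFD and 27.6, 33.1 and 48.5 in ko_HFD. Dtx3l had 33.6, 20.7 and 27.1 CPM in wt_normal, 18.3, 38.4 and 38.7 in ko_normal, 34.6, 21.2 and 30.8 in wt_HFD and 27.9, 37 and 42.1 in ko_HFD. In both genes the lowest of the 12 libraries was ko_normal replicate 1, and the genotypes overlapped on both diets. The averaged log2 differences were 0.31 ± 0.24 SE and 0.27 ± 0.21 SE (adjusted p = 0.51 and 0.513). Parp14, another ADP-ribosyltransferase, had 0.43 ± 0.17 SE, and Trim30a, a negative regulator of NF-kappaB signalling, 0.19 ± 0.24 SE.

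Among the other interferon-induced proteins, Ifi44, Xaf1 and Ifi35 were called. Ifi44 (chr3:151730922-151749960), a protein of the interferon response whose function is not well known, had 0.615, 0.333 and 0.868 CPM in wt_normal, 1.8, 4.64 and 3.65 in ko_normal, 2.04, 1.61 and 2.04 in wt_HFD and 2.39, 4.37 and 8.9 in ko_HFD. All ko libraries lay above wt within each diet, and the level in wt_normal rested on 7 counts in its lowest library. Ifi44 was 3.89-fold higher in ko averaged over both diets (log2 1.96 ± 0.36 SE, adjusted p = 0.0294), the largest averaged difference among the 36 members. Xaf1 (chr11:72301629-72313733), an antagonist of the apoptosis inhibitor XIAP, had 3.51, 5.05 and 4.34 CPM in wt_normal, 7.71, 9.53 and 18 in ko_normal, 11.5, 11.6 and 10.9 in wt_HFD and 13.2, 19.4 and 17.5 in ko_HFD. The wt_normal libraries were the lowest 3, and on both diets ko lay above wt without overlap. Xaf1 rose 2.0-fold in ko averaged over both diets (log2 1.0 ± 0.20 SE, adjusted p = 0.0388) and 1.93-fold on HFD averaged over both genotypes (log2 0.95 ± 0.20 SE, adjusted p = 0.0484). Ifi35 (chr11:101448407-101458698), which encodes a leucine zipper protein of the response, had 33.2, 26.1 and 32.3 CPM in wt_normal, 40.0, 52.5 and 48.1 in ko_normal, 59.8, 61.1 and 46.1 in wt_HFD and 64.8, 64.1 and 64.1 in ko_HFD. All libraries on HFD lay above those on normal diet in wt and also in ko. Ifi35 rose 1.82-fold on HFD in wt (log2 0.87 ± 0.16 SE, adjusted p = 0.0355) and 1.58-fold averaged over both genotypes (log2 0.66 ± 0.12 SE, adjusted p = 0.0226), whereas its averaged ko difference of 0.41 ± 0.12 SE was not called (adjusted p = 0.0961). Ifi27, a small mitochondrial and nuclear envelope protein, had 106, 129 and 102 CPM in wt_normal, 82.2, 251 and 203 in ko_normal, 159, 194 and 255 in wt_HFD and 216, 213 and 219.6 in ko_HFD. Its genotypes overlapped on both diets, and its averaged difference was 0.38 ± 0.22 SE (adjusted p = 0.379). Of the rest, Rtp4 had an averaged difference of 1.08 ± 0.27 SE (adjusted p = 0.0685), Ifi27l2a 0.45 ± 0.23 SE and Lgals3bp 0.09 ± 0.32 SE. Rtp4 shares 11.6% of its 50-base stretches with a predicted gene, and Ifi35 overlaps an antisense gene over 10.4% of its stretches.

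**Figure D4:**
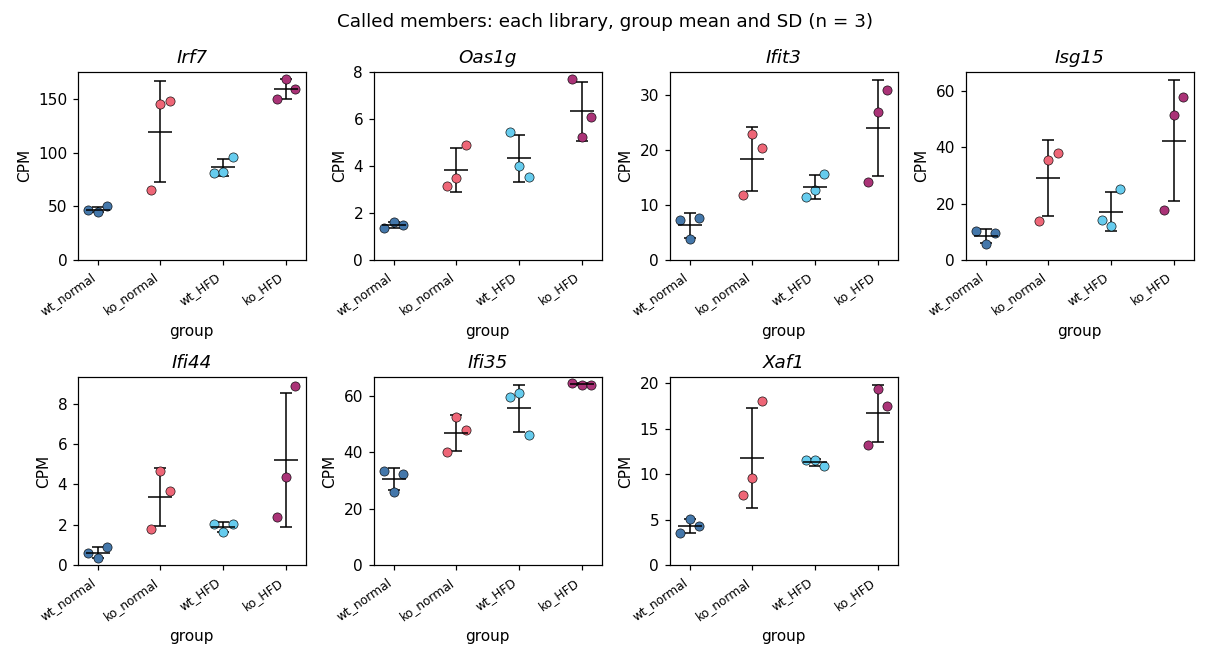
CPM of the 7 members called in at least 1 comparison, for each library (dots), with the mean and SD of the 3 libraries of a group. In all 7 genes wt_normal has the lowest mean of the 4 groups and ko_HFD the highest.

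The fit was repeated with each of the 12 libraries left out. For the averaged ko effect, Ifi44 and Xaf1 kept their call in 4 of the 12 fits, without ko_normal replicates 1 or 2, wt_HFD replicate 1 or ko_HFD replicate 1. Ifit3 and Isg15 kept it in 2, without ko_normal replicate 1 or ko_HFD replicate 1, and Oas1g in 1, without wt_HFD replicate 1. In the fits that lost the call, the adjusted p ran from 0.0506 to 0.0799 for Ifi44, from 0.0655 to 0.0920 for Xaf1, from 0.0531 to 0.0941 for Ifit3, from 0.0573 to 0.115 for Isg15 and from 0.0515 to 0.103 for Oas1g. The log2 differences stayed between 0.78 and 2.15 in these fits. For the averaged diet effect, Oas1g and Ifi35 kept their call in 7 of the 12 fits and Xaf1 in 1, and the adjusted p was at most 0.0658, 0.0640 and 0.121 in the others.

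Genes that lie upstream of the response were compared as lists. Of 12 interferon ligand genes, 9, including Ifnb1 and the interferon alpha genes examined (Ifna1, Ifna2, Ifna4, Ifna5 and Ifnab), had 0 counts in every library, where 3 counts, the limit that a count of 0 allows if a gene's reads are counted, correspond to 0.146 to 0.194 CPM. Ifng reached at most 5 counts, and Ifnk and Ifnz at most 2 each. A 0 in this table need not reflect depth: the fast muscle gene Tnnc2 was also at 0 in wt_normal replicate 2, where its partner Tnnt3 had 41886 counts, and the DNA exonuclease gene Trex1 was at 0 in all 12 libraries. The ligand genes are therefore given only as listed at 0, and too few transcripts and reads that were not counted cannot be told apart. Receptor and kinase genes, 8 of 9 tested, had median log2 differences of 0.12 on normal diet and -0.15 on HFD, and for ko against wt none passed in edgeR, at an unadjusted p under 0.05 included, or in DESeq2. Ifnar1, the receptor subunit, had 25.7, 23.8 and 29.1 CPM in wt_normal, 38.4, 27 and 33 in ko_normal, 32.8, 29.5 and 28.2 in wt_HFD and 23.6, 27.3 and 30.8 in ko_HFD, and its difference was 0.32 ± 0.17 SE on normal diet. Of 12 sensing adaptors and kinases tested edgeR called none for ko against wt, DESeq2 called Ikbke, and the medians were 0.14 and -0.10. In edgeR 3 passed an unadjusted p under 0.05 on normal diet and 0 on HFD, against 15.1% and 8.85% of all genes. Ikbke, the kinase that activates IRF3 and IRF7, had 14.2, 13.1 and 12.9 CPM in wt_normal, 40.0, 28.4 and 32.4 in ko_normal, 30.8, 24.7 and 43.4 in wt_HFD and 53.2, 33.1 and 19.4 in ko_HFD, with ko_normal above wt_normal in every library and overlap on HFD (averaged log2 0.71 ± 0.22 SE, adjusted p = 0.118).

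Among 8 other STAT and IRF factors, edgeR called 1 and DESeq2 called 2 for the averaged ko effect, Irf1 and Irf2, with list medians of 0.29 on normal diet and 0.09 on HFD. Irf2, a factor that binds the same elements and mostly represses them, had 27.3, 20.1 and 27.9 CPM in wt_normal, 67.3, 45.8 and 51.5 in ko_normal, 45.2, 33.2 and 26.8 in wt_HFD and 43, 41.8 and 42.1 in ko_HFD. It rose in ko averaged over both diets (log2 0.70 ± 0.15 SE, adjusted p = 0.0444), and all ko_normal libraries lay above wt_normal, whereas on HFD wt replicate 1 at 45.2 CPM exceeded all ko libraries. The call was kept in 2 of the 12 fits that left out 1 library, without ko_normal replicate 2 or wt_HFD replicate 1, and lost in the other 10, with an adjusted p of at most 0.106. With library totals alone as the scaling it was also lost (adjusted p = 0.0636). Negative regulators, 7 of 8 tested, had no call in edgeR for ko against wt and 1 in DESeq2, Nlrc5, with medians of -0.09 and 0.19. In edgeR 3 passed an unadjusted p under 0.05 on normal diet and 0 on HFD, against 15.1% and 8.85% of all genes. The smallest p was that of Nlrc5, also a regulator of MHC class I genes (averaged log2 0.51 ± 0.13 SE, adjusted p = 0.0676). Genes linked to interferon gamma, 9 of 11 tested, had no call in edgeR for ko against wt and 1 on each diet in DESeq2, Irf1 and H2-Aa. Their medians were -0.12 on normal diet and 0.55 on HFD. In edgeR 2 passed an unadjusted p under 0.05 on normal diet and 4 on HFD, against 15.1% and 8.85% of all genes. The smallest p on HFD was that of H2-Aa, a class II antigen presentation gene (log2 1.15 ± 0.29 SE, adjusted p = 0.307).

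**Figure D5:**
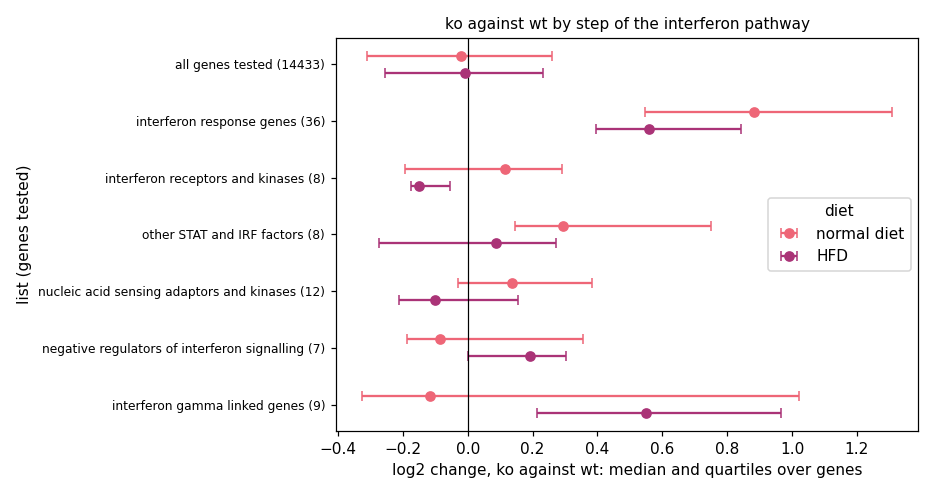
Median log2 change, ko against wt, over the genes of each step of the interferon pathway (dots, with bars from the first to the third quartile over genes), on normal diet and on HFD, with the number of genes tested. The 36 response genes lie at 0.88 and 0.56, the receptors and kinases at 0.12 and -0.15, and the genes linked to interferon gamma at -0.12 and 0.55.

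Markers of the cells that can produce or mount the response were read beside the members. The 13 Kupffer cell and macrophage markers, all with counts in every library, ranged in sum from 467 to 688 CPM for wt_normal, from 333 to 699 CPM for ko_normal, from 504 to 651 CPM for wt_HFD and from 419 to 821 CPM for ko_HFD. These ranges overlap between all 4 groups, and the lowest value was that of ko_normal replicate 1. The 11 sinusoidal endothelial markers, also detected throughout, ranged from 487 to 561 CPM for wt_normal, from 255 to 428 CPM for ko_normal, from 344 to 467 CPM for wt_HFD and from 253 to 394 CPM for ko_HFD, so every ko_normal library lay below every wt_normal library. The 10 hepatocyte markers summed to 48755 to 65561 CPM in wt_normal and 80961 to 87403 CPM in ko_normal, and to 62116 to 66566 CPM in wt_HFD and 82821 to 93327 CPM in ko_HFD, higher in every ko library. That sum was carried by Alb and Apoa1: the other 8 markers ranged from 19915 to 27095 CPM for wt_normal, from 21488 to 28158 CPM for ko_normal, from 27646 to 28515 CPM for wt_HFD and from 26875 to 32535 CPM for ko_HFD. The median averaged ko difference of all 10 was 0.09 (log2), with 8 positive and 1 called. The 10 stellate cell and fibrosis markers ranged from 179 to 813 CPM for wt_normal, from 109 to 121 CPM for ko_normal, from 90.4 to 362 CPM for wt_HFD and from 86.5 to 162 CPM for ko_HFD, without overlap on normal diet, with the highest value in wt_normal replicate 2. Most of that value was Des, at 547 CPM, in the library with 9231 CPM of skeletal muscle markers. The 362 CPM of wt_HFD replicate 2 held Acta2 at 128 CPM and Des at 70.5 CPM. These sums are therefore no clear level of stellate cells. The 6 B cell markers summed to 150 CPM in wt_normal replicate 2 and to at most 14.9 CPM in the other libraries. The 8 neutrophil and monocyte markers summed to 44.9 CPM in ko_HFD replicate 1 and to at most 22.7 CPM in the other libraries. The 12 T and NK cell markers summed to at most 8.81 CPM in any library, and Ncr1 was at 0 in wt_HFD. The 8 plasmacytoid dendritic cell markers ranged in sum from 198 to 485 CPM for wt_normal and from 215 to 363 CPM for ko_normal. For wt_HFD they ranged from 267 to 333 CPM, and for ko_HFD from 298 to 308 CPM. That sum was mostly Bst2, itself a member, at 173 to 348 CPM, except for Cox6a2 at 287 CPM in wt_normal replicate 2, the library with the muscle transcripts. Siglech, Ccr9, Klk1 and Runx2 had at most 1.85 CPM, and Tcf4 and Il3ra at most 15.6 and 11.8 CPM. The sum is therefore no level of plasmacytoid dendritic cells. Siglech, which defines plasmacytoid dendritic cells, the main source of interferon alpha, had 2 to 32 counts, with 32 in ko_normal replicate 1. The part of these differences, of the muscle transcripts and of the mitochondrial share in the levels of the interferon response genes was not tested. With both libraries that stand apart left out, an alternative added after the data were seen, the averaged ko effect had 4 called members (Irf7, Ifit3, Xaf1 and Zbp1) in place of 6, with 0.328% of all genes called. The median log2 difference was 0.94, with Irf7 at 1.25 (adjusted p = 0.00129). Of these libraries, ko_normal replicate 1 was the lowest of its group for 34 of the 36 members. Leaving it out raises the ko_normal levels by construction.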

How the data were processed

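RNA of 12 liver libraries was measured, and the files hold the whole-number read counts per gene that the authors deposited, with no normalisation. Per the submitters' processing notes, CASAVA 1.8 and Bowtie 0.12.2 were used, and the builds mm8 and mm9 are named without a role. The counting tool, annotation and strand setting were not given in the sources used here. Antisense neighbours and near-identical copies therefore cannot be told apart in the counts, and shared stretches were found by comparing all 50-base stretches of GENCODE M21 transcripts. Groups and replicate numbers came from the labels. The members, role groups and pathway lists were chosen with earlier results of these data known.

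Genes were filtered with edgeR's filterByExpr, which left 14433, and scaled by TMM. CPM are the counts that edgeR scales to a common library size, and CPM per kb divides them by exon length. Differences were tested with edgeR 4.0.16 (quasi-likelihood F-test, two-sided) in 1 model of all 4 groups (residual degrees of freedom 8, prior degrees of freedom 4.66). That test gives no standard error, so each SE is the absolute log2 difference divided by the square root of its F statistic. Calls required an adjusted p (Benjamini-Hochberg, over all genes tested) under 0.05. All adjusted p-values are from this test unless DESeq2 is named. The script was tested on simulated counts. With totals of 15465187 to 20492567 counts, the biological coefficient of variation was 0.301, and the chi-square per degree of freedom between replicates ran from 39.5 to 199, so no pair of replicates agreed within sampling noise.

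Values in every library are given for each called member, the 2 members of each role group with the highest mean CPM, and the 3 members with the smallest p in each comparison. Other members were named to account for all 36. From each pathway list, called genes and those with the smallest p in the ko against wt comparisons were eligible. The library values of Mx1 and Siglech fall outside this rule and were chosen after they were seen. Alternatives were fits of only the groups compared, the replicate number as a block, the Wald test of DESeq2 1.42.0, its size factors, library totals alone, no filter, a filter of 1 CPM in 3 libraries, and each library left out. Leaving out both libraries that stand apart was added after the data were seen. Positions are those of GENCODE M21 on GRCm38, not the authors' coordinates, and promoters come from RefSeq on GRCm38.p6.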

Additional observations from a re-analysis of the deposited data

How the results depend on the processing

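In all 7 comparisons, the median log2 differences of the 36 members moved by less than the spread between replicate libraries (0.36) under every edgeR alternative. These medians were not computed for the DESeq2 Wald test. With 1 library left out they ran from 0.68 to 1.14 for ko against wt on normal diet, from 0.41 to 0.73 on HFD, from 0.62 to 0.87 averaged over both diets, from 0.33 to 0.58 for HFD in wt and from 0.17 to 0.40 for HFD averaged over both genotypes. For HFD in ko the range was -0.01 to 0.46, so that its direction rested on ko_normal replicate 1, and it was -0.73 to -0.16 for the ko effect on HFD minus that on normal diet. The counts of called members were less stable, and why they differed was not tested. On normal diet the count of 0 was 14 with the DESeq2 Wald test (3.69% of all genes called) and 13 with no filter (2.46%, against 0.208% with the filter). It was 0 to 2 with 1 library left out (0.0201% to 0.564%) and 1 with both libraries that stand apart left out (0.0342%). On HFD the count of 0 was 1 with both left out (0.109% of all genes) and 0 to 1 with 1 library left out (0.0134% to 0.0941%). Averaged over both diets the count of 6 was 18 with DESeq2 (6% of all genes) and 13 with no filter (2.45%, against 1.16% with the filter). It was 3 with library totals only (0.873%) and 1 to 9 with 1 library left out (0.302% to 1.7%). For HFD in wt the count of 2 was 9 with DESeq2 (4.7% of all genes) and 9 with no filter (2.65%, against 0.693%). It was 0 with library totals only (0.679%), with only the groups compared (0.248%) and with both libraries left out (0.151%). With 1 library left out it was 0 to 7 (0.0604% to 0.877%). For HFD averaged over both genotypes the count of 3 was 9 with DESeq2 (5.63% of all genes) and 7 with no filter (1.86%, against 1.04%). It was 0 with both left out (0.287%) and 0 to 2 with 1 library left out (0.301% to 1.82%). For HFD in ko and for the contrast of both ko effects the count was 0 under every alternative, leaving out 1 library included.

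The replicate numbers are not said to mark a shared litter or day. The deviations of the 18 pairs of libraries with the same number correlated from -0.21 to 0.33, with a median of 0.02. The 36 pairs with different numbers ran from -0.25 to 0.24, with a median of -0.01. Of each kind, 4 pairs exceeded 0.1. Among the members, replicate 3 was the highest of its group for 16, 20, 24 and 25 in wt_normal, ko_normal, wt_HFD and ko_HFD. The shares over all genes were 28.3%, 25.1%, 35.1% and 34.9%. Whether the numbers mark libraries that belong together cannot be told from these values. With the replicate block the counts were 7 for the averaged ko effect (1.09% of all genes called), 1 for HFD in wt (0.63%), 3 for HFD averaged over both genotypes (0.721%) and 0 in the others. The called genes differed: for the averaged ko effect the block lost Oas1g and gained Rtp4 and Zbp1, and for HFD in wt it lost Oas1g and Ifi35 and gained Xaf1. Single members with a small difference changed sign when 1 library was left out: Parp9 on normal diet (-0.055 without ko_normal replicate 2, and up to 0.51), Bst2 on HFD (-0.042 without wt_HFD replicate 1, and up to 0.11), Ifi27 on HFD (-0.055 without wt_HFD replicate 1, and up to 0.29), and Mx2 on HFD (0.11 without wt_HFD replicate 2 and 0.046 without ko_HFD replicate 1, and down to -0.30). Depth limits the lowest members, such as Ifi44 with 7 counts in 1 library.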
